A study of Mus musculus with 8 samples.

Results

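*Fos*, *Fosb*, *Jun*, *Junb*, *Jund*, *Egr1*, *Atf3*, *Ier2*, *Ier3* and *Myc* are genes of the AP-1 transcription factor and of the immediate-early response. They were chosen by name, and all 10 had a row among the 23282 rows of the count data. Immediate-early genes are transcribed within minutes of a stimulus without new protein synthesis, because the factors that switch them on are already present and need only be modified. AP-1 is a dimer of a Jun protein with a Fos, Atf or other Jun protein, formed through their leucine zippers. In the liver the same genes respond to endotoxin, to injury and to partial hepatectomy, and mitogen-activated protein (MAP) kinases and NF-κB act on them.

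The livers came from C57BL/6 mice aged 4 weeks, all labelled male. The control group received saline. The endotoxemic group was given 25 mg/kg of lipopolysaccharide (LPS), the outer-membrane endotoxin of gram-negative bacteria, by intraperitoneal injection. The study describes the LGK974 group as given 60 mg/kg of LGK974 and the same LPS dose. The labels of that group name LGK974 alone, with neither a dose nor LPS. LGK974 inhibits Porcupine, the acyltransferase that Wnt proteins need to be secreted. Livers were taken 6 h after LPS, and in most experiments LGK974 was injected 2 h before it. LGK974 given without LPS was not analysed here, so that an effect of the inhibitor on its own could not be separated from its effect under LPS. Whether a library holds 1 mouse or a pool was not given in the sources used here, and the p-values measure the spread between these libraries.

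There were 2 control, 4 endotoxemic and 2 LGK974 libraries. Endotoxemic libraries 3 and 4 held the counts of libraries 1 and 2 on every row, and were therefore counted once, which left 2 distinct libraries in each group. Totals ranged from 9142116 to 15222439 counts, and a floor of 3 counts corresponded to 0.196 to 0.327 CPM, the count scaled to the normalized size of the library. The sex label did not hold in every library. *Xist*, which silences an X chromosome in female cells, lay at 134 and 204 CPM with saline, at 128 and 201 CPM with LPS and at 0.226 and 0.474 CPM with LGK974. *Ddx3y*, a Y-linked gene, had no count in any control or endotoxemic library and lay at 132 and 94.2 CPM with LGK974. The libraries of the control and endotoxemic groups therefore went against their label while matching each other, and in both comparisons with the LGK974 group sex and treatment cannot be told apart. Hepatocyte transcripts, which define the tissue, were abundant in every library, with 8 marker genes summing to between 37040 and 116900 CPM.

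The genes lie on 8 chromosomes (GRCm38, GENCODE). Those of the Jun family are *Jun* (ENSMUSG00000052684.4, chr4:95049034-95052222), *Junb* (ENSMUSG00000052837.6, chr8:84974484-84978718) and *Jund* (ENSMUSG00000071076.6, chr8:70698949-70700616). *Fos* (ENSMUSG00000021250.13) lies at chr12:85473890-85477273 and *Fosb* (ENSMUSG00000003545.3) at chr7:19302696-19310051. *Ier2* (ENSMUSG00000053560.4, chr8:84661331-84662852) is on the same chromosome as *Junb* and *Jund*. *Ier3* (ENSMUSG00000003541.6) lies at chr17:35821684-35822923, *Atf3* (ENSMUSG00000026628.13) at chr1:191170296-191218039, *Egr1* (ENSMUSG00000038418.7) at chr18:34859823-34864984 and *Myc* (ENSMUSG00000022346.15) at chr15:61985391-61990374. Genes on the other strand overlap 4 of them, which are *Junb* (*Prdx2*, over 351 bases at the 3′ end of *Junb*), *Jund* (the antisense gene *Gm11175*), *Jun* (the antisense gene *Junos*) and *Atf3* (*Gm24748*). Whether the counting used strand was not given in the sources used here, and without strand the reads of such a pair cannot be told apart.

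The rows carried gene symbols and followed the order of the genome, except that 579 of the 23134 rows with a known position carried a symbol from elsewhere. *Jun* was one of them. Its row lay between *Meaf6* and *Grik3*, which lie far from *Jun* on the same chromosome, the nearer of them 30033 kb away, and the row at the place of *Jun*, between *Mysm1* and *Fggy*, carried the symbol *Tlr1*. The row named *Jun* held 590 and 937 counts with saline, 370 and 273 with LPS, and 636 and 309 with LGK974. The row at its place held 7 and 2, 1108 and 1014, and 704 and 944 counts in the same order. The gene to which either row belongs was not established, so no change is given for *Jun*. The other 9 genes lay on rows in genomic order, and 8 of them had rows of their genomic neighbours directly above and below. For *Junb* the row directly above carried *Cxcr2*, a gene of another chromosome, and the nearest ordered rows were *Rnaseh2a*, 7.3 kb away, and *Hook2*. The row of *Junb* itself stood in its place between these neighbours, and its changes are given on that ground, with the counts without it as well. *Fosb* did not pass the filter on low counts, which left 8 of the 10 genes for testing.

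Promoter sequences from RefSeq (GRCm38.p6) were matched for 7 of the 10 genes, and those of 4 are printed because these genes cover the range of responses described next. Each runs 5′ to 3′ on the strand of its gene over the 250 bases before the transcription start. *Ier3* (chr17:35821463-35821712, plus strand) and *Atf3* (chr1:191183334-191183583, minus strand) had the largest changes between the endotoxemic and control groups. *Junb* (chr8:84978749-84978998, minus strand) had a high level in every group, and *Fos* (chr12:85473640-85473889, plus strand) a low one. The window of *Atf3* lies inside the span that GENCODE gives the gene. Capitals mark any match, on either strand, to an AP-1 site (TGANTCA), the core of a cyclic AMP response element (TGACG), a CArG box, an NF-κB site, an Egr site (GCGTGGGCG) or a TATA box (TATAAA).
Ier3: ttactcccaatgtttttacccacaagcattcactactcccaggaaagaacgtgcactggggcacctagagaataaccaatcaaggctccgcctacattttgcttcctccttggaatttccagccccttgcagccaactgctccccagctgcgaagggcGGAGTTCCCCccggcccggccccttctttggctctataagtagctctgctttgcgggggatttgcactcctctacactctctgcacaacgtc
Atf3: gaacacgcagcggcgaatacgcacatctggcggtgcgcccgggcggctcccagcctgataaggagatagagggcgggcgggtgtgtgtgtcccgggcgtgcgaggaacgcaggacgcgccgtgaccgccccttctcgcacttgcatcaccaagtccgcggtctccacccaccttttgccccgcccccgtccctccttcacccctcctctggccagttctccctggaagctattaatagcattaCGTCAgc
Junb: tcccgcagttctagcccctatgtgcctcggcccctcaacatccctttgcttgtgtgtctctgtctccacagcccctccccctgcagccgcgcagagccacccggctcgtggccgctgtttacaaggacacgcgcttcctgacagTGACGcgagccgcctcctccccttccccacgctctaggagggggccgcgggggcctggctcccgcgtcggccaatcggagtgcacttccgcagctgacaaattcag
Fos: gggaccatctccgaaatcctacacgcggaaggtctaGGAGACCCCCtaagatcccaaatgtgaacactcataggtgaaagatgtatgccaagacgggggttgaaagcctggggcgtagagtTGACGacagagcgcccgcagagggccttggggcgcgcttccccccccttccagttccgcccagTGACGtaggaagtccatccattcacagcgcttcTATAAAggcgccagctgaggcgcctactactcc

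*Ier3* held an NF-κB match at 92 to 83 bases before its start. *Fos* held one at 214 to 205 bases, with a TATA box at 33 to 28 bases and a TGACG core at 129 to 125 and again at 66 to 62 bases. A single TGACG core stood in *Junb* at 106 to 102 bases and, on the other strand as CGTCA, in *Atf3* at 7 to 3 bases. *Fosb*, not printed, had an NF-κB match and a TGACG core, and the windows of *Jun* and *Jund* held none of the motifs. The window of *Jund* (chr8:70697489-70697738) precedes its RefSeq start and lies apart from the GENCODE start at 70698949. The bases just before the GENCODE start of *Jund* were not searched. No matches overlapped. Among 32851 windows of this length the NF-κB match was found in 3.9%, the TGACG core in 17.8%, the TATA box in 12.4%, the AP-1 site in 6.75%, the CArG box in 1.47% and the Egr site in 0.536%. A match is a run of letters and does not show binding.

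Of the 8 tested genes, 6 (*Ier3*, *Atf3*, *Junb*, *Egr1*, *Ier2* and *Jund*) rose with LPS and none fell relative to saline, with a median log2 fold change of 1.54. Across all 12219 tested rows in genomic order, 19.3% were called higher and 22.7% lower, and the median was 0.0. At an unadjusted p below 0.05, and by DESeq2, 6 of the 8 were higher and 0 lower as well. Relative to the endotoxemic group, *Egr1* and *Atf3* fell with LGK974, none rose, and the median was -0.49. There 2.82% of all rows were called higher and 2.64% lower, with a median of 0.04. At an unadjusted p below 0.05, 4 of the 8 were lower and 0 higher, and by DESeq2 2 were lower and 0 higher. Relative to the control group, *Ier3*, *Junb* and *Jund* rose with LGK974 and none fell, with a median of 0.90 beside 15.3% of rows higher, 17.2% lower and a median of 0.01, and 4 were higher and 0 lower at an unadjusted p below 0.05 and by DESeq2. Without *Junb*, 5 of 7 were higher with LPS (median log2 1.01) and 2 of 7 lower between the LGK974 and endotoxemic groups (median -0.42). Between the LGK974 and control groups 2 of 7 were then higher (median 0.72). The last comparison shares its libraries with the other two. Calls are adjusted p-values below 0.05 in edgeR's quasi-likelihood test over all 12701 tested rows. CPM are normalized levels, and the 3′-end method reads near the end of a transcript, so that CPM do not scale with length. How well each gene's 3′ end was captured was not tested, and levels of different genes are set side by side on that understanding.

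**Figure D1:**
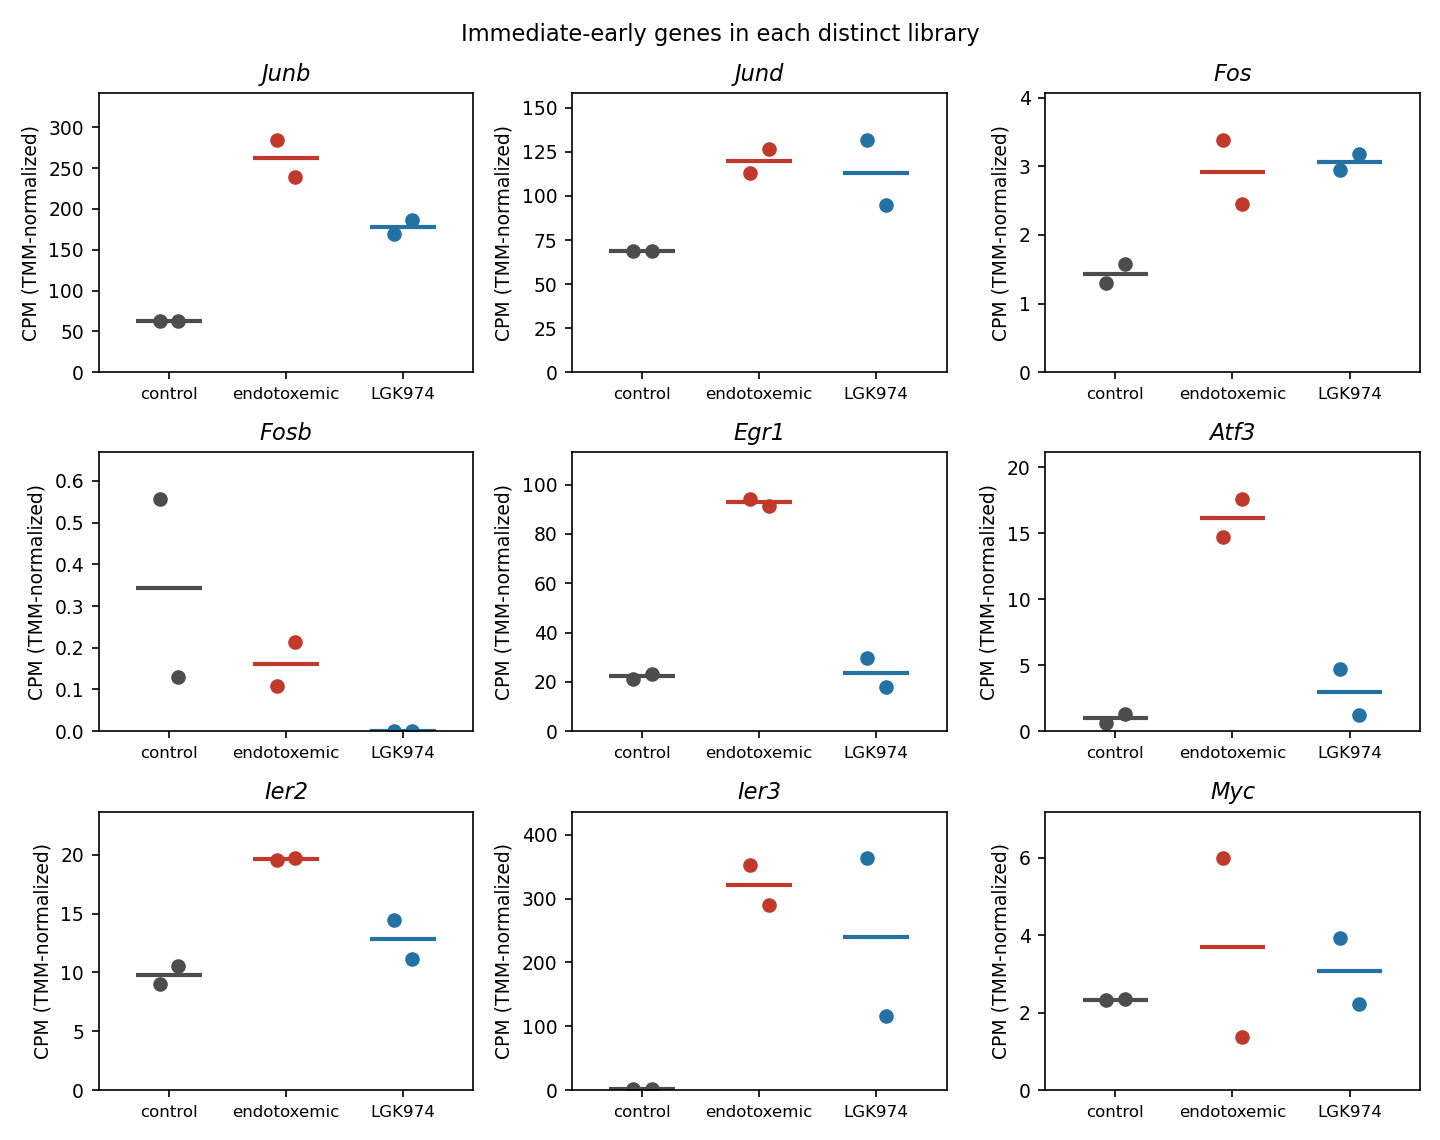
Level (CPM, normalized, linear axes from 0) of the 9 genes on rows in genomic order in each distinct library. Points are libraries, lines are the means of 2 libraries. *Ier3*, *Atf3*, *Junb* and *Egr1* stand far above the control libraries in the endotoxemic group, and *Egr1* and *Atf3* return towards the control level in the LGK974 group.

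The Jun family supplies the subunit present in every AP-1 dimer. *Junb* encodes a factor that restrains c-Jun in some settings and replaces it in others, and *Jund* encodes the member that most resting tissues express. *Junb* lay at 62.8 and 62.4 CPM with saline, at 285 and 239 CPM with LPS and at 169 and 186 CPM with LGK974. Its groups did not overlap, with control lowest and endotoxemic highest. *Junb* rose 4.18-fold in the endotoxemic group (log2 2.07, SE 0.19, adjusted p 4.67e-05 in edgeR) and was 2.84-fold above control in the LGK974 group (log2 1.50, SE 0.19, adjusted p 0.000365). Its difference between the LGK974 and endotoxemic groups did not pass the test (log2 -0.56, 95% interval -0.98 to -0.14, adjusted p 0.112).

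*Jund* lay at 68.9 and 68.5 CPM with saline, at 113 and 127 CPM with LPS and at 132 and 94.6 CPM with LGK974. The treated groups overlapped each other and lay above control. The rise of *Jund* was 1.75-fold in the endotoxemic group (log2 0.81, SE 0.21, adjusted p 0.0141) and 1.65-fold in the LGK974 group (log2 0.72, SE 0.21, adjusted p 0.0281), and the LGK974 and endotoxemic groups differed by -0.08 (interval -0.56 to 0.39). Both calls missed the threshold in some fits with 1 library left out. The first, at log2 0.72 to 0.81, was lost without endotoxemic library 2 (adjusted p 0.0987), control library 1 (0.0949) or control library 2 (0.0906). The second was lost without endotoxemic library 2 (0.058), control library 1 (0.153) or control library 2 (0.146), at log2 0.72 in each, and without LGK974 library 1 at log2 0.47 (0.0676).

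The balance of *Junb* and *Jund* differed between the groups. Of the counts on both genes together, *Junb* took 47.7% in each control library (Wilson 95% intervals 45.1% to 50.3% and 45.5% to 49.8%). Its share was 71.5% and 65.4% with LPS and 56.2% and 66.3% with LGK974. Every treated library lay above the control libraries, and the ranges of the treated groups overlapped. The summed level of *Junb* and *Jund* was 131 ± 0.636 CPM (SD, n = 2) in the control group, 382 ± 22.3 CPM in the endotoxemic group and 291 ± 14.2 CPM in the LGK974 group. For a single value such as this sum, 2 against 2 libraries cannot give an exact two-sided permutation p below 0.333.

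The Fos family supplies partners for Jun proteins, and its members do not dimerize with each other. *Fos* was among the lowest of the genes, with 14 and 24 counts (1.30 and 1.57 CPM) with saline, 31 and 23 counts (3.38 and 2.45 CPM) with LPS and 39 and 47 counts (2.94 and 3.18 CPM) with LGK974. Its treated libraries all lay above control, but neither difference passed the test. The log2 fold change of *Fos* was 1.01 in the endotoxemic group (interval -0.11 to 2.14, adjusted p 0.131) and 1.08 in the LGK974 group (interval -0.02 to 2.19, adjusted p 0.118). *Fosb* had 6 and 2 counts with saline, 1 and 2 with LPS and 0 with LGK974, so that its mean level was close to or under the floor in every group and no change is given.

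Other Fos family genes carried most of the family's transcripts. *Fosl2*, which encodes Fra-2, lay at 7.33 and 6.80 CPM with saline, at 54.3 and 48.3 CPM with LPS and at 40.2 and 35.4 CPM with LGK974. It rose by 2.86 on the log2 scale in the endotoxemic group (SE 0.22, adjusted p 1.55e-05) and lay 2.42 above control in the LGK974 group. *Fosl1*, which encodes Fra-1, had 0 and 1 count with saline against 28 and 57 with LPS and 32 and 21 with LGK974, and passed the test against control in both groups (adjusted p 0.000671 and 0.00356). The sum of *Fos*, *Fosb*, *Fosl1* and *Fosl2* was 8.88 ± 0.443 CPM (SD, n = 2) in the control group, 59.0 ± 2.73 CPM in the endotoxemic group and 42.8 ± 3.91 CPM in the LGK974 group.

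**Figure D2:**
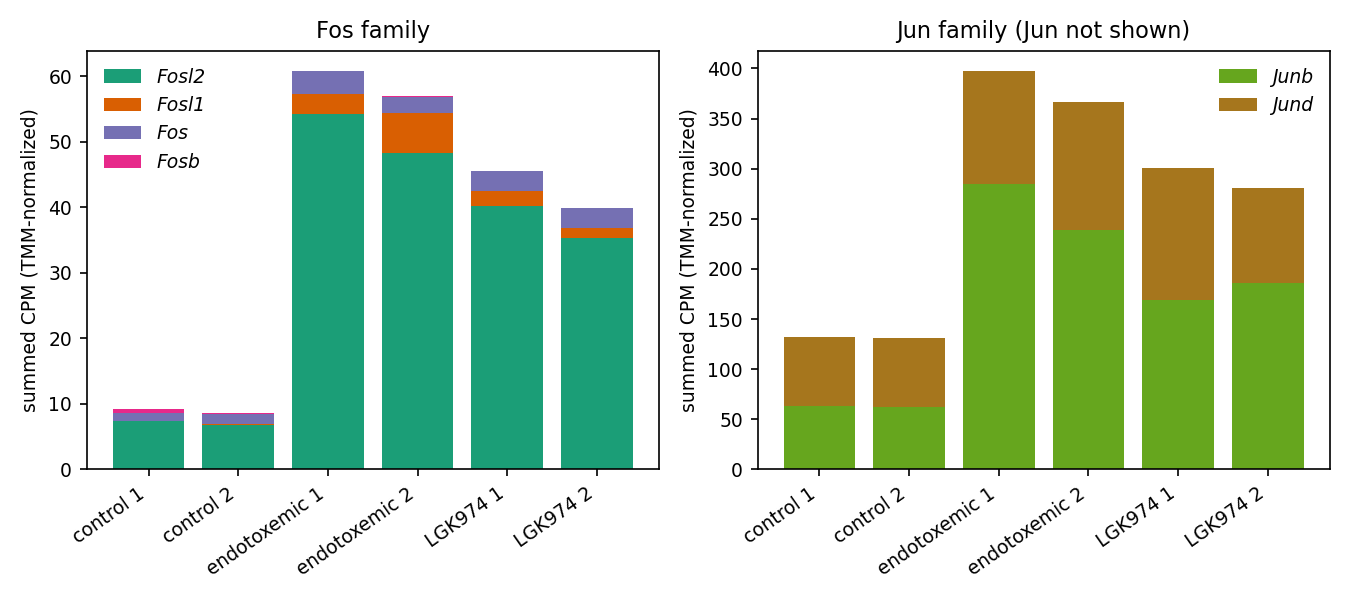
Summed level (CPM, normalized) of the Fos family (*Fos*, *Fosb*, *Fosl1*, *Fosl2*) and of *Junb* with *Jund* in each distinct library, with *Jun* left out because its row is out of genomic order. The Fos family mean was 8.88 CPM in the control group, 59.0 CPM in the endotoxemic group and 42.8 CPM in the LGK974 group, and the groups do not overlap in either panel.

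*Egr1* encodes a zinc-finger factor induced through serum response factor and the ERK branch of MAP kinase signaling. It lay at 21.2 and 23.3 CPM with saline, at 94.2 and 91.4 CPM with LPS and at 29.6 and 17.8 CPM with LGK974. The endotoxemic libraries stood apart from the other 4, and the LGK974 libraries fell on either side of control. *Egr1* rose 4.17-fold in the endotoxemic group (log2 2.06, SE 0.26, adjusted p 0.000263 in edgeR) and was 3.92-fold higher there than in the LGK974 group (log2 -1.97, SE 0.26, adjusted p 0.0053). The LGK974 and control groups differed by 0.09 (interval -0.49 to 0.66, adjusted p 0.821). Without endotoxemic library 2 the fall in the LGK974 group was as large and missed the threshold (log2 -1.99, adjusted p 0.0627).

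*Atf3* encodes a stress-induced member of the Atf branch that pairs with Jun proteins and represses many cytokine genes in macrophages. Its counts were 7 and 20 with saline, 135 and 165 with LPS, and 62 and 18 with LGK974. In CPM these were 0.650 and 1.31, 14.7 and 17.6, and 4.68 and 1.22. The endotoxemic libraries were again the highest, and LGK974 library 2 lay within the range of control. *Atf3* rose 15.9-fold in the endotoxemic group (log2 3.99, SE 0.63, adjusted p 0.000932) and was 5.51-fold higher there than in the LGK974 group (log2 -2.46, SE 0.56, adjusted p 0.0385). Against control the LGK974 group differed by 1.53 (interval 0.09 to 2.96, adjusted p 0.0938), which passed without LGK974 library 2 (log2 2.19, adjusted p 0.00153), with the lone LGK974 library assumed to vary like those of the other groups. The call against the endotoxemic group, though not the size of the fall, which was -2.61 to -2.33 in these fits, was lost with the replicate number as a block (adjusted p 0.0519) and without endotoxemic library 1 (0.165), endotoxemic library 2 (0.234), control library 1 (0.067) or control library 2 (0.0672), and with only the 2 groups compared in the fit (0.0657).

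**Figure D3:**
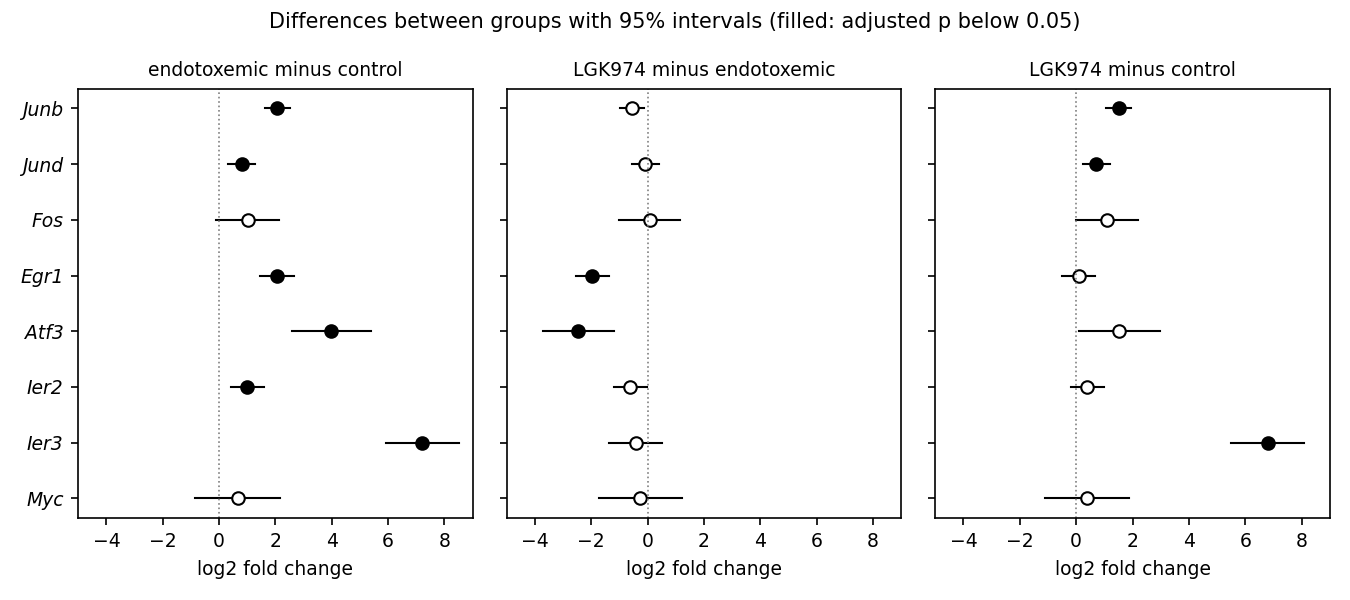
Log2 fold changes of the 8 tested genes in the 3 comparisons, with 95% intervals (edgeR, 2 distinct libraries a group). *Ier3* shows the largest change against control in both treated groups, and between the LGK974 and endotoxemic groups the intervals of *Egr1* and *Atf3* lie farthest below 0.

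*Ier3* encodes IEX-1, a short-lived protein that acts in apoptosis and in feedback on ERK and NF-κB signaling. Against control it had the largest fold of the 8 genes in both treated groups. *Ier3* lay at 2.13 and 2.16 CPM with saline, at 352 and 290 CPM with LPS and at 364 and 116 CPM with LGK974. All treated libraries were far above control, and the LGK974 libraries spanned a wider range than the endotoxemic ones. The rise of *Ier3* was 149-fold in the endotoxemic group (log2 7.22, SE 0.58, adjusted p 1.98e-05) and 111-fold in the LGK974 group (log2 6.80, SE 0.57, adjusted p 3.25e-05). The treated groups differed by -0.42 (interval -1.37 to 0.53, adjusted p 0.592), a value that moved with the library left out, to -1.47 without LGK974 library 1 (adjusted p 0.000234, with the same assumption on the lone library) and to 0.18 without LGK974 library 2. *Flot1* starts 0.4 kb from *Ier3*, and the annotated genes do not overlap.

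*Ier2* encodes a small nuclear protein. Its level was 9.0 and 10.5 CPM with saline, 19.5 and 19.7 CPM with LPS and 14.5 and 11.2 CPM with LGK974, in 3 ranges that did not overlap. *Ier2* rose 2.00-fold in the endotoxemic group (log2 1.00, SE 0.26, adjusted p 0.0127), and the call, though not the size of the rise (log2 0.90 to 1.07), was lost without endotoxemic library 1 (0.0524), endotoxemic library 2 (0.0677) or control library 1 (0.0969). The difference between the LGK974 and endotoxemic groups was -0.61 (interval -1.19 to -0.03, adjusted p 0.196) and that between the LGK974 and control groups 0.39 (interval -0.20 to 0.98, adjusted p 0.277).

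*Myc* encodes a helix-loop-helix leucine zipper factor that binds DNA with Max and drives genes of growth and ribosome synthesis. It lay at 2.32 and 2.35 CPM with saline, at 6.00 and 1.39 CPM with LPS and at 3.92 and 2.23 CPM with LGK974. The endotoxemic libraries fell on either side of all the others, so that no order of the groups could be read. *Myc* differed by 0.66 between the endotoxemic and control groups (interval -0.85 to 2.16, adjusted p 0.454), by -0.26 between the LGK974 and endotoxemic groups and by 0.39 between the LGK974 and control groups.

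The order of the genes by level changed with LPS. In the control group *Jund* (68.7 CPM) and *Junb* (62.6 CPM) led, followed by *Egr1* (22.3), *Ier2* (9.76), *Myc* (2.34), *Ier3* (2.15), *Fos* (1.43), *Atf3* (0.978) and *Fosb* (0.344), and the ranges of *Fos* and *Atf3* overlapped. In the endotoxemic group *Ier3* led at 321 ± 44.0 CPM (SD, n = 2), above *Junb* (262 ± 32.0), *Jund* (120 ± 9.68), *Egr1* (92.8 ± 1.99), *Ier2* (19.6 ± 0.133) and *Atf3* (16.2 ± 2.02), with *Myc* and *Fos* overlapping below them. *Ier3* thereby moved from the 18.4th to the 97.8th percentile of all tested rows in order, and *Fos* from the 12.8th to the 22.7th. In the LGK974 group *Ier3* (240 ± 175 CPM) overlapped both *Junb* (178 ± 12.0) and *Jund* (113 ± 26.3), while *Junb* lay above *Jund*. *Atf3* dropped to 2.95 ± 2.45 CPM in that group, in a range that overlapped *Myc* and *Fos*.

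Among 19 other AP-1, Atf and Maf genes, all in order and tested, 9 rose and 3 fell in the endotoxemic group (median log2 0.42), beside 19.3% and 22.7% of all rows, so that only the higher share exceeded that of all rows. *Batf2*, which encodes a basic leucine zipper partner of Jun proteins, went from 0 and 4 counts with saline to 229 and 159 with LPS (adjusted p 9.13e-05). *Mafg*, a small Maf partner, fell by 1.38 on the log2 scale, from 109 and 100.3 CPM to 42.8 and 37.6 CPM (SE 0.19, adjusted p 0.000438). Relative to the endotoxemic group, 1 rose and 4 fell with LGK974 (median -0.44), beside 2.82% and 2.64% of all rows. *Maf* rose by 1.24 there, *Batf2* fell by 2.56 and *Batf3* by 3.0 (adjusted p 0.0209, 0.0237 and 0.0299). Without endotoxemic library 1 or 2 these changes kept their direction and missed the threshold, with log2 values of 1.32 and 1.14 for *Maf* (adjusted p 0.144 and 0.209), -2.27 and -2.81 for *Batf2* (0.199 and 0.129), and -2.38 and -3.44 for *Batf3* (0.277 and 0.118). The calls of *Maf* and *Batf3* were also lost without control library 1 (0.0584 and 0.0614) or control library 2 (0.0581 and 0.0612) and with only the 2 groups compared in the fit (0.0586 and 0.0564). Against control, 6 of the 19 rose and 2 fell in the LGK974 group (median 0.07), beside 15.3% and 17.2% of all rows.

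Of 34 other immediate-early genes in order, 30 were tested, 14 of which rose and 3 fell in the endotoxemic group (median log2 0.59), beside 19.3% and 22.7% of all rows. *Cebpd*, an acute-phase transcription factor of the liver, rose by 3.24 (SE 0.24, adjusted p 1.17e-05), from 18.6 and 21.3 CPM to 164 and 213 CPM. Relative to the endotoxemic group, 8 of the 30 fell with LGK974 (*Btg2*, *Zfp36*, *Zfp36l1*, *Gadd45b*, *Rhob*, *Csrnp1*, *Hbegf* and *Trib1*) and none rose, with a median of -0.59, beside 2.64% of all rows lower and 2.82% higher. At an unadjusted p below 0.05, 2 were higher and 14 lower, and by DESeq2 1 was higher and 10 lower. *Gadd45b*, an activator of stress kinase cascades, lay at 3.06 and 4.05 CPM with saline, at 26.8 and 31.8 CPM with LPS and at 7.40 and 5.01 CPM with LGK974, a fall of 2.24 (SE 0.30, adjusted p 0.00603) that was -2.11 and missed the threshold without endotoxemic library 2 (adjusted p 0.0798). *Hbegf*, a ligand of the epidermal growth factor receptor, fell by 2.22 (SE 0.45, adjusted p 0.026), and at -2.33 to -2.14 missed the threshold without endotoxemic library 1 (0.149) or 2 (0.202) and without control library 1 (0.0536) or 2 (0.051), and with only the 2 groups compared (0.0511). Against control, 7 rose and 9 fell in the LGK974 group (median 0.23), beside 15.3% and 17.2% of all rows.

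MAP kinases and the cofactors of serum response factor relay the signals that switch immediate-early genes on. Of 22 tested, 9 rose and 4 fell in the endotoxemic group (median log2 0.42), beside 19.3% and 22.7% of all rows, and none was called between the LGK974 and endotoxemic groups (edgeR, median -0.22), where 3 were higher and 5 lower at an unadjusted p below 0.05 and DESeq2 called 0. *Map3k8*, the kinase Tpl2 that activates ERK downstream of the LPS receptor, went from 3 counts in each control library to 97 and 90 counts with LPS (adjusted p 0.000226). *Map2k6*, an activator of p38, went from 82 and 130 counts to 0 and 4 (adjusted p 0.000831), and *Mapk3*, the kinase ERK1, fell by 1.77 (SE 0.32). Against control, 6 rose and 4 fell in the LGK974 group (median 0.03), beside 15.3% and 17.2% of all rows.

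Of 13 tested feedback inhibitors of MAP kinases, 4 rose and 3 fell with LPS (median log2 1.08), beside 19.3% and 22.7% of all rows, the lower share being at that level. *Dusp8*, a phosphatase of stress-activated kinases, had no count in either control library and 90 and 113 counts with LPS, at least 46.1-fold higher against a floor of 3 counts per library. It fell by 2.88 from the endotoxemic to the LGK974 group (SE 0.47, adjusted p 0.0163), and at -3.04 and -2.72 missed the threshold without endotoxemic library 1 (0.111) or 2 (0.18). In that comparison edgeR called 1 of the 13 lower and 0 higher, whereas 4 were lower and 0 higher at an unadjusted p below 0.05 and by DESeq2, and 2.64% of all rows were called lower and 2.82% higher. *Dusp6*, a phosphatase of ERK, fell by 2.14 in the endotoxemic group (SE 0.25, adjusted p 0.000163) and by 2.11 in the LGK974 group against control. *Dusp1*, itself an immediate-early gene, lay between 78.9 and 137 CPM in all 6 libraries and was not called. In the LGK974 group 2 of the 13 rose and 2 fell against control (median 0.31), each share being near that of all rows (15.3% and 17.2%).

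Target genes of AP-1, Atf3 and Egr1 could be followed only in part, since 10 of 25 lay on rows out of order (*Timp1*, *Hmox1*, *Il6*, *Ccl2*, *Cxcl1*, *Cxcl2*, *Ptgs2*, *F3*, *Icam1* and *Cd44*). Of the 12 tested, 9 rose and none fell in the endotoxemic group (2 lower at an unadjusted p below 0.05, 1 by DESeq2), with a median log2 of 2.23, or 1.45 with genes at 0 in the control group set at their bound, beside 19.3% of all rows higher and 22.7% lower. *Plaur*, which encodes the urokinase receptor, went from 0 and 4 counts with saline to 169 and 94 counts with LPS (adjusted p 8.17e-05), and had 123 and 125 counts with LGK974. Between the LGK974 and endotoxemic groups 1 of the 12 was lower and 0 were higher in edgeR (median -0.14), with 3 lower and 2 higher at an unadjusted p below 0.05, and 2 lower and 1 higher by DESeq2, beside 2.64% and 2.82% of all rows called lower and higher. Against control, 8 rose and 1 fell in the LGK974 group (median 2.07), beside 15.3% and 17.2% of all rows.

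*Myc* acts with partner proteins and on target genes, which were counted apart. Among 14 tested partners 3 rose and 3 fell in the endotoxemic group (median log2 -0.04), shares near the 19.3% and 22.7% of all rows. *Max*, the obligate partner, rose by 1.65 (SE 0.20, adjusted p 0.000203), from 23.9 and 23.6 CPM to 81.8 and 67.5 CPM. *Mycl*, a paralog of *Myc*, fell by 3.63 (SE 0.50, adjusted p 0.000443), and *Mlxipl*, which encodes the carbohydrate-responsive factor ChREBP, fell by 2.12 (SE 0.22). Among 25 tested Myc target genes 16 rose and 1 fell in the endotoxemic group (median 0.80), and 15 rose and 1 fell in the LGK974 group against control (median 0.77), where 15.3% of all rows were higher and 17.2% lower. *Nop58*, a nucleolar protein, rose by 2.66 (SE 0.25) and *Odc1*, which catalyses the first step of polyamine synthesis, by 2.09 (SE 0.21).

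None of the 25 Myc target genes was called between the LGK974 and endotoxemic groups (edgeR, median log2 -0.05), with 3 lower at an unadjusted p below 0.05 and 0 by DESeq2, whereas 2 of the 14 partners fell there (median -0.14), beside 2.64% of all rows lower and 2.82% higher. *Max* fell by 1.11 (SE 0.20, adjusted p 0.0169) and *Mga*, a repressor that binds Max, by 1.15 (SE 0.20, adjusted p 0.0163). Both falls stayed between -1.24 and -0.99, and their calls were lost without endotoxemic library 1 (0.154 and 0.104) or 2 (0.108 and 0.159) and without control library 2 (0.0522 and 0.0501), and that of *Max* also without control library 1 (0.0536) and with only the 2 groups compared (0.0501). Against control, none of the partners rose (1 at an unadjusted p below 0.05, 0 by DESeq2) and 4 fell in the LGK974 group (median -0.18), beside 15.3% of all rows higher and 17.2% lower.

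**Figure D4:**
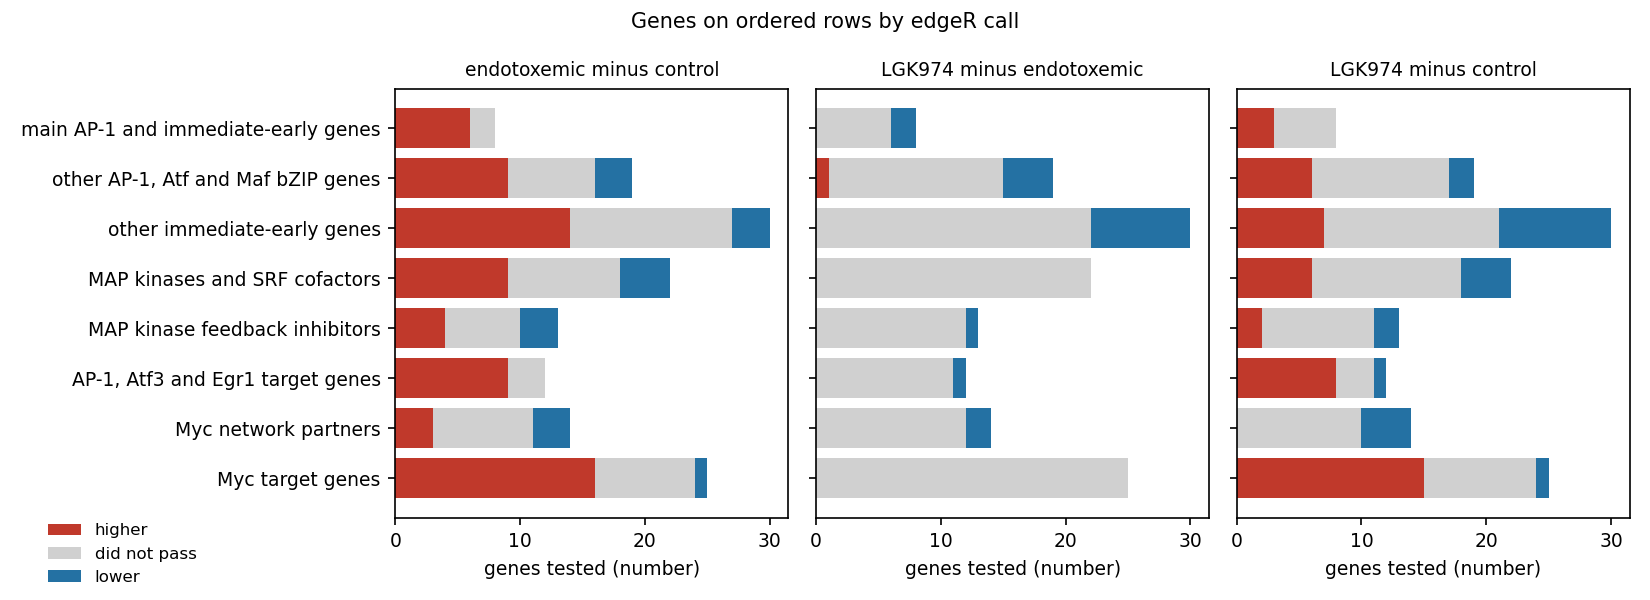
Number of tested genes on rows in genomic order called higher, called lower or not passing the edgeR test (adjusted p below 0.05) in each of the 8 gene lists plotted, cell-type markers not among them, and comparison. Between the endotoxemic and control groups the higher calls outnumber the lower ones in every list plotted but the Myc network partners, where both number 3. Between the LGK974 and endotoxemic groups most genes of every plotted list did not pass.

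Markers of the cell types in liver moved with the same groups, and in these whole-tissue samples fewer cells of a type and less RNA per cell cannot be told apart. All 6 neutrophil markers on ordered rows were higher with LPS than with saline, with sums of 1.76 and 2.35 CPM with saline, 98.4 and 111 CPM with LPS and 72.01 and 65.98 CPM with LGK974, and *Ngp*, *Camp* and *Ltf* had no count in either control library. None of the 6 was called between the LGK974 and endotoxemic groups in edgeR, and 1 was lower at an unadjusted p below 0.05 and by DESeq2. Of 8 hepatocyte markers 6 were lower in the endotoxemic group, with sums of 116900 and 84590 CPM with saline, 54100 and 37040 CPM with LPS, and 41770 and 40360 CPM with LGK974. Sums of 7 Kupffer cell and macrophage markers were 116 and 119 CPM, 154 and 139 CPM, and 98.9 and 137 CPM in the same order, and those of 8 endothelial markers were 238 and 253 CPM, 448 and 446 CPM, and 477 and 617 CPM. Sums of 8 stellate and matrix markers lay between 483 and 615 CPM, and those of 10 lymphocyte markers between 1.01 and 8.35 CPM, with *Ncr1* at 0 in every library. Single genes carried several of these sums. Without *Lyve1* the other 7 endothelial markers summed to 188 and 218 CPM with saline, 88.5 and 109.6 CPM with LPS, and 77.8 and 118 CPM with LGK974, so that the treated groups lay below saline and not above it. Without *Marco* the other 6 Kupffer cell and macrophage markers summed to 109 and 112 CPM, 57.3 and 64.9 CPM, and 38.0 and 39.6 CPM, and without *Dcn* the other 7 stellate and matrix markers to 144 and 143 CPM, 66.1 and 68.9 CPM, and 85.6 and 88.8 CPM. Without *Alb* the other 7 hepatocyte markers summed to 32060 and 31790 CPM, 15260 and 14590 CPM, and 17900 and 16760 CPM. The genes left out, those of highest mean level, were chosen after the data had been seen. Relative to saline, LPS was accompanied by 1 higher and 2 lower of the 7 Kupffer cell and macrophage markers, 2 higher and 3 lower of the 8 endothelial markers, 1 higher and 5 lower of the 8 stellate and matrix markers, and no call among the 3 lymphocyte markers tested (0 also at an unadjusted p below 0.05 and by DESeq2), beside 19.3% of all rows higher and 22.7% lower. Between the LGK974 and endotoxemic groups 2 of the 8 stellate and matrix markers were higher, 1 of the 8 endothelial markers was higher and 1 lower, 1 of the 7 Kupffer cell and macrophage markers was lower, and no hepatocyte or tested lymphocyte marker was called in edgeR (2 hepatocyte markers higher and 1 lymphocyte marker lower at an unadjusted p below 0.05, 2 and 0 by DESeq2), beside 2.82% of all rows higher and 2.64% lower. The part of these shifts in the changes of the immediate-early genes was not tested.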

How the data were processed

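The authors sequenced liver RNA by a 3′-end method (Lexogen QuantSeq) and deposited raw counts per gene symbol, without normalization, for 8 libraries. The submitters' processing notes name Bowtie2, edgeR and mm10, and the counting program was not given in the sources used here. Depth is given at the opening of the report, and the Wilson intervals and floors cover counting error only.

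Libraries identical on every row were counted once. Row order was compared with RefSeq positions (GRCm38): rows outside the longest ordered run and more than 2 Mb from their ordered neighbours were called out of order, and changes are given for rows in order. The test was that of edgeR 4.0.16 in R 4.3.3: filterByExpr, TMM, 1 quasi-likelihood fit of 3 groups over 6 distinct libraries, and Benjamini-Hochberg adjustment at 0.05 over 12701 rows. SEs and 95% intervals were derived from the F test and include the spread between libraries, and CPM use TMM-normalized library sizes. On simulated data with 200 of 12701 genes changed 4-fold between the endotoxemic and control groups, 75% were recovered and 6.25% of calls were false. Where none was changed, 2 genes were called. Far more rows were called in the data between these groups, 2595 higher and 2918 lower, so that the simulated rates may not hold there. No comparison with the LGK974 group was scored in the simulation.

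The 10 genes and the lists were chosen with earlier results of these data known. List genes with values are the largest rises and falls past the threshold, up to 2 in each direction for each list and comparison, and *Fosl2*, *Dusp1* and the marker genes were added by name. The values of some list genes are not reported here. Alternatives were no filter, at least 10 counts in every library, DESeq2 1.42.0, relative log expression size factors, *Rn45s* left out, rows out of genomic order left out, 10 Mb in place of 2 Mb, CPM of the library total, identical libraries kept separate, only the groups compared, the replicate number as a block, and leaving out each library, where the library left alone in its group is assumed to vary like the other groups.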

Additional observations from a re-analysis of the deposited data

How the results depend on the processing

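Of the results for the 8 tested genes under the alternatives, 323 kept their direction and side of the threshold, 17 lost a call, 8 gained one and 9 changed direction, none of which was a called value. Without endotoxemic library 1 the log2 difference of *Myc* was -0.691 between the endotoxemic and control groups and 1.116 between the LGK974 and endotoxemic groups, beside 1.359 and -0.964 without endotoxemic library 2. In the latter comparison *Fos* was -0.142 and *Jund* 0.001 without endotoxemic library 2, beside 0.291 for *Fos* without endotoxemic library 1, and *Jund* was 0.135, *Ier3* 0.18 and *Myc* 0.09 without LGK974 library 2, beside -0.341 for *Jund* and -1.465 for *Ier3* without LGK974 library 1. Against control, *Egr1* was -0.319 and *Myc* -0.061 without LGK974 library 1, and 0.413 and 0.748 without LGK974 library 2. The cause was not tested. Between the LGK974 and endotoxemic groups 2 of the genes were called lower, which became 1 with at least 10 counts in every library, with the replicate block or with only the compared groups, 4 with identical libraries kept separate (*Junb* and *Ier2* being added), and 0 to 3 when 1 library was left out, lowest without endotoxemic library 2 and highest without LGK974 library 1. *Atf3* was not tested with at least 10 counts in every library, since control library 1 held 7 counts of it. With identical libraries kept separate *Fos* was also called higher in both comparisons with control (adjusted p 0.0156 and 0.0228). In the LGK974 group against control *Atf3* was called with no filter (0.00371) and by DESeq2 (0.0482).

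Over all tested rows the LGK974 group had 356 higher and 358 lower than the endotoxemic group. These became 881 and 824 with no filter, 600 and 627 by DESeq2, 1711 and 1548 with identical libraries kept separate, and 107 and 162 with only the compared groups. Leaving out 1 library gave 23 to 1175 higher and 26 to 1067 lower, with the lowest counts without endotoxemic library 2 and the highest without LGK974 library 1. In the endotoxemic group against control the 2595 higher and 2918 lower became 1517 to 3196 and 1801 to 3523, and in the LGK974 group against control the 2081 and 2247 became 1041 to 2608 and 1331 to 2761, lowest without control library 1 except for the lower calls of the endotoxemic group, which were fewest without endotoxemic library 1. The Jun family sum in the control group was 130 CPM of the library total. Of the named list genes, 837 results kept their call, 54 lost and 1 gained it.

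With the replicate block, 2577 and 2908 rows were called in the endotoxemic group against control, 330 and 355 between the treated groups and 2048 and 2259 in the LGK974 group against control. Same-numbered libraries correlated at 0.14, 0.06 and -0.01 in their deviations. With 2 numbers only, these values cannot show whether same-numbered libraries shared a batch, which was not tested. The block changed no other call of the 8 genes than that of *Atf3*. Depth limits *Fosb*, *Fos*, *Atf3*, *Myc* and *Ier3*, whose control libraries held 2 to 36 counts each.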
